A study of Mus musculus with 11 samples.

Results

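The genes described here are Trp53, which encodes the transcription factor p53, and 7 genes known as p53 targets: Mdm2, Cdkn1a, Ccng1, Aen, Bax, Trp53inp1 and Sesn2. They were chosen by symbol from a written list of p53 and target genes and make up 8 of the 38197 genes in the deposited count table. All 8 passed the filter on low counts, with at least 963 counts in every library. Polyadenylated RNA was sequenced from the mouse embryonic stem cell line E14 during monolayer differentiation toward ventral hindbrain neurons. All 11 libraries were labelled wild type and strain 129, with RA and SAG given as applied from day 0 to day 3. The unsorted cultures gave 2 libraries each at day 0 (embryonic stem cells), day 1, day 2 and day 3. A further 3 libraries came from neural progenitors sorted for Prominin-1, called day 3.5 in their titles although another of their labels says 3 days. The sorted libraries carry a different name prefix from the others, so that sorting, time and whatever that prefix marks cannot be told apart. No label tells if the libraries of one stage were grown separately, and p-values then measure only the spread between them, which may be technical.

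In unstressed cells p53 protein is kept low by Mdm2, an E3 ubiquitin ligase that marks it for destruction and that is itself a p53 target, which closes a negative feedback loop. DNA damage and other stresses stabilise the protein, and p53 then activates genes for cell cycle arrest, apoptosis, metabolic control and its own restraint. Mouse embryonic stem cells are known for abundant Trp53 mRNA and protein and for a p53 that also represses self-renewal genes during differentiation. Because p53 is regulated mainly as a protein, mRNA levels such as those given here do not measure its activity.

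The promoters of the 3 genes that differed most between stages are shown because 2 of them, Mdm2 and Cdkn1a, are the textbook targets through which p53 is read and the third is the gene of the factor itself. Each line gives the 250 bases before a transcription start, on the strand of the gene, from RefSeq on build GRCm38.p6. Capitals mark matches to the p53 half-site consensus, a 10-base pattern of which a full binding site holds 2.
Trp53: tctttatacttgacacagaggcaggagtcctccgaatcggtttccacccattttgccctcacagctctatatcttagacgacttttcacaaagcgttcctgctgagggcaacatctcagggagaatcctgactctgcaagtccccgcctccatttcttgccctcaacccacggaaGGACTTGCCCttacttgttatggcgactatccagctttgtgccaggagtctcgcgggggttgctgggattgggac
Mdm2: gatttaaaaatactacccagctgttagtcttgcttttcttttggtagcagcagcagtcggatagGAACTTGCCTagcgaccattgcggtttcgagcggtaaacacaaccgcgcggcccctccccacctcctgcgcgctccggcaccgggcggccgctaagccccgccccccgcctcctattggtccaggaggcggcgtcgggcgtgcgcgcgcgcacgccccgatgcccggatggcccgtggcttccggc
Cdkn1a: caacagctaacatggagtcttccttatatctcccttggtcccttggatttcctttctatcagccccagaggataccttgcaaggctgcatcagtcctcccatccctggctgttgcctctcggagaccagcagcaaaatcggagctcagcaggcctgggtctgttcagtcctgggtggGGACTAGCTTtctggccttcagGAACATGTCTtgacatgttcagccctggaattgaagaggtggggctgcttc
The Trp53 stretch is chr11:69580109-69580358 on the plus strand, that of Mdm2 is chr10:117710759-117711008 on the minus strand, and that of Cdkn1a, before the upstream of its 2 starts, is chr17:29090729-29090978 on the plus strand. Only the Cdkn1a stretch held 2 half-sites, GGACTAGCTT and GAACATGTCT, from 73 to 42 bases before the start, which together meet the full-site pattern with a spacer of at most 13 bases. Matches had to be exact, so tgacatgttc, directly after GAACATGTCT, is not marked, as it departs from the pattern at its first base. In windows of 300 bases (250 before and 50 after the start), 7 of the 9 promoters of the 7 matched genes held a half-site on either strand. The same was true of 8.36% of 32851 RefSeq promoters, and 24 of those, or 0.0731%, held a full site. The others with a match were Ccng1 (GGGCAAGCCT), Aen (GGGCTTGTCC) and Bax (AGGCAAGCTT), while Sesn2 and the downstream start of Cdkn1a had none in these windows. The windows of the Aen starts overlap and hold the same site, which was counted in both. By gene, 6 of the 7 matched had a half-site. Trp53inp1 was not matched. As the genes were listed as p53 targets, these matches describe the sequences and are no result about them. Sequence outside these windows was not searched, and no marked half-site is shown here to be bound by p53.

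In GENCODE M21 on GRCm38 all 8 are protein-coding genes. Trp53 lies on chromosome 11 at 69580359 to 69591873, Mdm2 on chromosome 10 at 117688875 to 117710758 and Cdkn1a on chromosome 17 at 29090976 to 29100727. Ccng1 lies on chromosome 11 at 40748552 to 40755311, Aen on chromosome 7 at 78895854 to 78911209 and Bax on chromosome 7 at 45461697 to 45466898. Trp53inp1 lies on chromosome 4 at 11156431 to 11174379 and Sesn2 on chromosome 4 at 132492032 to 132510501. Whether counting used strand was not given here, and reads could be shared between Cdkn1a and the antisense gene AC167363.2 over 273 exonic bases (7.68% of Cdkn1a). Bax overlaps the gene Gm45808 on its own strand over 192 exonic bases (12.2% of Bax), and reads there cannot be assigned by strand. The processed pseudogene Trp53-ps was given 3 to 32 counts per library, against 1289 to 9073 for Trp53.

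Library totals ran from 13173674 to 30384599 counts, the lower values being those of the sorted libraries. By naive pluripotency markers the stages went with their labels. The summed level of 10 such markers was 682 to 1147 CPM (counts scaled by library total, with TMM factors) at day 0, 153 to 163 at day 1, 37 to 45.3 at day 2, 26.4 to 36.8 at day 3 and 9.8 to 13.2 in the sorted cells. Dppa3, one of these markers, was at 0 in all sorted libraries. The summed level of 10 neural progenitor markers was 575 to 621 CPM at day 0, 424 to 425 at day 1, 1558 to 1633 at day 2, 2480 to 2923 at day 3 and 3313 to 3536 in the sorted cells. Markers of other cell types were also counted. The 10 neuron markers summed to 504 to 506 CPM at day 0, mostly from Stmn2 (mean 310.8 CPM) and Ina (120.9 CPM), 219 to 225 at day 1, 179 to 188 at day 2 and 1176 to 1362 at day 3. In the sorted cells, labelled progenitors, they summed to 1103 to 1781 CPM. Between sorted cells and day 3 edgeR called 0 of these 10 in either direction, with 2 higher and 0 lower at an unadjusted p under 0.05. The 10 extraembryonic endoderm markers summed to 2240 to 4017 CPM at day 3, against 741 to 1029 CPM at day 0. The difference in the sums lay mostly in Lama1 (mean 1291 CPM at day 3, against 369.3 at day 0) and Col4a1 (1579 CPM, against 218.4), basement membrane genes that other cells express too, and over the list 3 markers rose, 2 (Cubn and Amn) fell and 5 were not called. In such bulk samples fewer cells of a type and less RNA per cell cannot be told apart.

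Of the 8 genes, 3 differed across days 0 to 3 by the edgeR quasi-likelihood F test: Trp53 (F = 28.2, adjusted p = 0.000532), Cdkn1a (F = 29.1, adjusted p = 0.000487) and Mdm2 (F = 12.5, adjusted p = 0.00503). Of all 16810 genes tested, 53.7% did so, so 3 of 8 is no excess over the background. The other adjusted p-values were 0.0685 for Sesn2, 0.106 for Trp53inp1, 0.135 for Aen, 0.828 for Ccng1 and 0.919 for Bax. This count was 6 without the second library of day 1 and 6 with no filter on low counts. With an offset for the GC content of genes, described with Bax, it was 7.

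**Figure D1:**
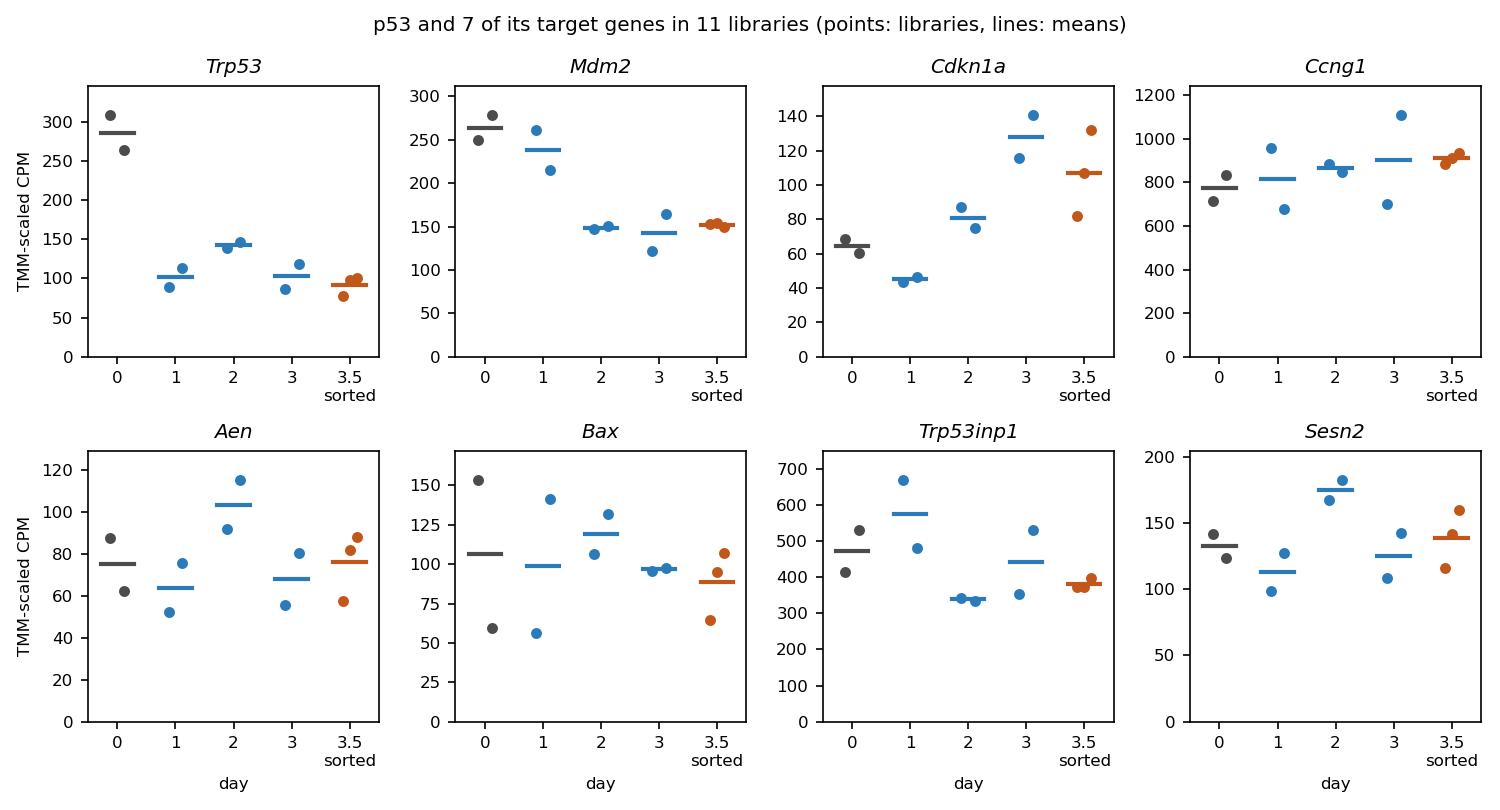
Level of each of the 8 genes in every library (points, TMM-scaled CPM) by day, with a bar at the mean of each stage, 2 libraries at each of days 0 to 3 and 3 at day 3.5 (sorted). Trp53 stood highest in both day 0 libraries (264 and 308.5 CPM), Cdkn1a was highest on average at day 3 (116 and 141 CPM), and Ccng1 and Bax showed no separation of the days.

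Trp53 mRNA fell on the first day. It was at 308.5 and 264 CPM in the day 0 libraries, 88.9 and 114 (day 1), 138 and 147 (day 2), 86.7 and 119 (day 3), and 77.1, 98.1 and 101 in the sorted cells. Both day 0 libraries lay above all others, the day 2 libraries came next without overlap, and days 1, 3 and the sorted cells overlapped. The mean was 101 ± 17.7 CPM at day 1, against 286 ± 31.7 CPM at day 0 (SD, n = 2 each), a log2 fold change of -1.5 ± 0.20 (SE, edgeR, adjusted p = 0.00167). It was the 1 of the 8 genes that fell past the threshold of 0.05 between these days, where 8.91% of all genes tested fell. edgeR called 0 of the 8 higher, where 12% of all genes tested rose, as did DESeq2 (0), and 0 had a higher level at an unadjusted p under 0.05. At day 3 Trp53 remained low, at 103 ± 22.5 CPM, against 286 ± 31.7 CPM at day 0 (SD, n = 2 each), with a log2 fold change of -1.47 ± 0.20 and an adjusted p of 0.00031. The higher mean of day 2 against day 1 did not pass the test (log2 fold change 0.50 ± 0.20, adjusted p = 0.104), nor did the lower mean of day 3 against day 2 (-0.47 ± 0.20, adjusted p = 0.211). The day 3 call held in 19 of 19 alternative analyses. The day 1 call held in 18 of 19, where adjusted p ran from 2.37e-09 to 0.0693, the last with log2(FPKM + 1) and no filter.

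Mdm2, the ubiquitin ligase that restrains p53, was lower from day 2 on. Its levels were 249.5 and 278.6 CPM (day 0), 262 and 215 (day 1), 147 and 151 (day 2), 122 and 164 (day 3), and 154, 154 and 149 in the sorted cells. The libraries of days 0 and 1 overlapped each other and all lay above those of the later stages, which overlapped among themselves. Between day 1 and day 0 the log2 fold change was -0.15 ± 0.18 (adjusted p = 0.604). Mdm2 then fell to 149 ± 2.75 CPM at day 2, against 239 ± 33 CPM at day 1 (SD, n = 2 each), a log2 fold change of -0.68 ± 0.18 (adjusted p = 0.0303). This step was less firm, as it was called in 13 of 19 alternatives, with adjusted p from 0.0083 to 0.186, and was lost without the first library of day 1 (0.161), the first of day 2 (0.186) or the second of day 2 (0.16). The net difference was firmer, with 143 ± 29.7 CPM at day 3, against 264 ± 20.5 CPM at day 0 (SD, n = 2 each), a log2 fold change of -0.88 ± 0.18 (adjusted p = 0.0032) and a call in 19 of 19 alternatives. Mdm4, the paralog of Mdm2 that binds p53 without being an efficient ligase on its own, had 82.8 ± 16.1 CPM at day 3, against 91.9 ± 34.1 CPM at day 0 (log2 fold change -0.14 ± 0.26, adjusted p = 0.657).

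Cdkn1a encodes p21, an inhibitor of cyclin-dependent kinases and the main arrest gene downstream of p53. Over 3 days it rose where Trp53 fell. Its levels were 68.4 and 60.5 CPM (day 0), 43.6 and 46.6 (day 1), 87.3 and 74.9 (day 2), 116 and 141 (day 3), and 82.2, 107 and 131.8 in the sorted cells. The day 1 libraries were the lowest, day 0 came next without overlap, and both day 3 libraries lay above all of days 0 to 2. The lower level at day 1 than at day 0 missed the threshold (log2 fold change -0.52 ± 0.17, adjusted p = 0.0582). At day 2 Cdkn1a rose to 81.1 ± 8.76 CPM, against 45.1 ± 2.1 CPM at day 1 (SD, n = 2 each), a log2 fold change of 0.85 ± 0.17 (adjusted p = 0.00878). That call held in 17 of 19 alternatives, with adjusted p from 0.00067 to 0.1, the highest without the first library of day 2. The net rise was to 128.2 ± 17.8 CPM at day 3, against 64.5 ± 5.58 CPM at day 0 (SD, n = 2 each), a log2 fold change of 1.00 ± 0.17 (adjusted p = 0.00107), called in 19 of 19 alternatives.

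Per transcript length, in the deposited FPKM values, the order of Cdkn1a and Trp53 differed between stages, which was not tested. Cdkn1a had 27.5 and 22 FPKM (day 0), 18.7 and 21.2 (day 1), 37.7 and 33.2 (day 2), 54.3 and 62.7 (day 3) and 34.6, 46.3 and 59.5 in the sorted cells. Trp53 had 145 and 111 FPKM (day 0), 45 and 62.1 (day 1), 70.1 and 73.9 (day 2), 46.3 and 60.3 (day 3) and 37.1, 48.2 and 52.3 in the sorted cells. In each library of days 0 to 2 the FPKM of Cdkn1a was below that of Trp53, and in both day 3 libraries it was above. In the sorted cells it was below Trp53 in 2 libraries and above it in 1. By CPM Cdkn1a was above Trp53 in every sorted library, so the order there depends on the measure. Ccng1 had the highest FPKM of the 8 genes in every library, from 185 to 298. Sesn2 ran from 21.6 to 42.1 FPKM and Aen from 22.8 to 60.

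**Figure D2:**
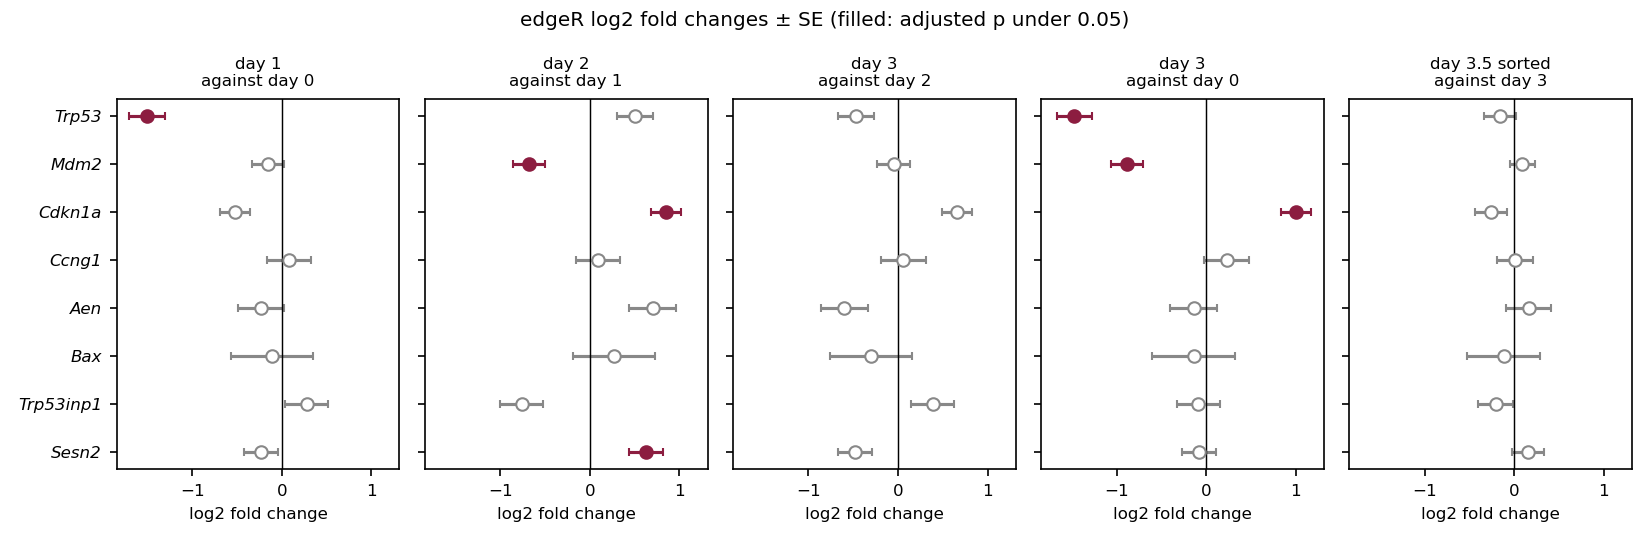
edgeR log2 fold change of each of the 8 genes (bars: SE) in the comparisons of day 1 with day 0, day 2 with day 1, day 3 with day 2, day 3 with day 0, and day 3.5 sorted with day 3, with filled points where the adjusted p was under 0.05. Trp53 was at -1.5 on the first day, and over 3 days Trp53 (-1.47) and Mdm2 (-0.88) were lower and Cdkn1a (1.00) higher.

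Between day 2 and day 1 the calls among the 8 genes were Cdkn1a and Sesn2 higher and Mdm2 lower, where 9.65% of all genes tested rose and 9.99% fell. Sesn2 encodes Sestrin 2, a stress protein that restrains mTORC1 when leucine is short and is induced by p53 and also by ATF4. It had 142 and 124 CPM (day 0), 98.3 and 127.6 (day 1), 167 and 183 (day 2), 108 and 142 (day 3), and 116, 142 and 160 in the sorted cells. Both day 2 libraries lay above all others, and the other stages overlapped. The day 2 mean was 175 ± 10.9 CPM, against 113 ± 20.7 CPM at day 1 (SD, n = 2 each), a log2 fold change of 0.63 ± 0.19 at an adjusted p of 0.046. That call stood in only 9 of 19 alternatives, with adjusted p from 0.0164 to 0.953. It was lost without the first library of day 1 (0.24), the first of day 2 (0.155) or the second of day 2 (0.235), and with the GC offset the change was -0.02. The summed level of 12 genes of the ATF4 stress response was 1099 to 1177 CPM at day 2, against 1243 to 1285 CPM at day 1, and its part in the level of Sesn2 was not tested.

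Aen encodes a nuclease that acts in p53-dependent apoptosis, and its course was the most like that of Sesn2. It had 87.7 and 62.2 CPM (day 0), 52.1 and 75.7 (day 1), 91.6 and 115 (day 2), 55.7 and 80.3 (day 3), and 57.6, 81.9 and 88 in the sorted cells. The day 2 libraries were again above all others, but the difference from day 1 did not pass the test (log2 fold change 0.70 ± 0.26, adjusted p = 0.0932). Among the 28 pairs of the 8 genes, Aen and Sesn2 had the smallest root mean square difference of centred log2 CPM over the 11 libraries, 0.11. The largest was that of Trp53 and Cdkn1a, 0.92, followed by Mdm2 and Cdkn1a, 0.873. These distances describe libraries that share depth and base composition.

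Trp53inp1 encodes a nuclear protein that promotes p53 phosphorylation, cell death and autophagy. It had 414 and 531 CPM (day 0), 670 and 480 (day 1), 343 and 335 (day 2), 354 and 531 (day 3), and 373, 372 and 399 in the sorted cells. The day 2 libraries were below all others, and the other stages overlapped in their ranges with a neighbour in the order of means. Against day 1 the day 2 level gave a log2 fold change of -0.76 ± 0.24 that missed the threshold (adjusted p = 0.055) and passed it in 10 of 19 alternatives, with adjusted p from 0.00503 to 0.285.

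Ccng1 encodes cyclin G1, which recruits the phosphatase PP2A to Mdm2 as part of the feedback on p53. It was at 714 and 835 CPM (day 0), 957 and 676 (day 1), 885 and 847 (day 2), 699 and 1108 (day 3), and 885, 913 and 936 in the sorted cells. The range of its stage means, 0.24 on the log2 scale, was no wider than the SD within stages, 0.25. No comparison of Ccng1 passed the test, and the interval around day 3 against day 0 (log2 fold change 0.23 ± 0.25, adjusted p = 0.462) leaves room for a change in either direction.

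Bax, a pore-forming member of the BCL2 family that commits a cell to apoptosis, varied more between libraries of a stage than between stages. It had 154 and 59.7 CPM (day 0), 56.5 and 141 (day 1), 107 and 131.6 (day 2), 95.6 and 97.6 (day 3), and 64.4, 94.8 and 107 in the sorted cells. The second library of day 0 and the first of day 1 were low and their partners were the 2 highest of all, so that the days overlapped. The log2 fold change between day 3 and day 0 was -0.14 ± 0.46 (adjusted p = 0.818). Bax has the highest GC content of the 8, 63.5% over its longest transcript, and Trp53inp1 the lowest, 38.8%. Between the day 0 libraries, second minus first, Bax differed by -1.35 on the log2 scale and Trp53inp1 by 0.36, while the median was -0.52 over the 20% of all genes richest in GC and 0.33 over the poorest 20%. Between the day 1 libraries the signs were turned, with 1.31 for Bax, -0.48 for Trp53inp1, 0.63 for the GC-rich genes and -0.35 for the GC-poor genes.

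**Figure D3:**
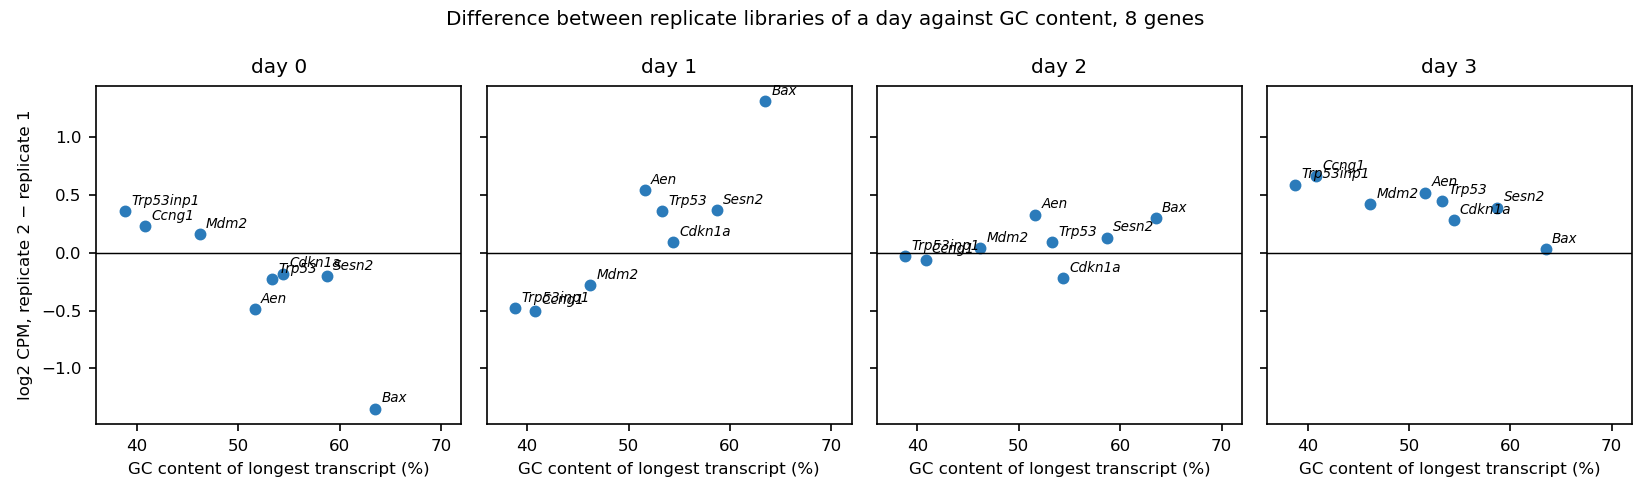
Difference between the libraries of each day (log2 CPM, second minus first) for the 8 genes against the GC content (percent) of their longest transcript. At day 0 Bax, at 63.5% GC, lies at -1.35 and Trp53inp1, at 38.8%, at 0.36, and at day 1 they lie at 1.31 and -0.48.

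With a smooth offset for GC content fitted in each library, some calls of the 8 genes changed. In the day 3 comparison with day 0, Bax was lower (log2 fold change -1.24, adjusted p = 0.000166), as was Sesn2 (-0.87, adjusted p = 0.00997), and Ccng1 was higher (0.46, adjusted p = 0.0239). Trp53 (-1.68), Mdm2 (-0.73) and Cdkn1a (0.69) kept their calls there. Without the 2 low libraries of Bax, a choice made after seeing the data, Bax was also called lower at day 3 than at day 0 (-0.67, adjusted p = 0.00932), from 1 library at day 0. Over its 19 alternatives Bax ran from -1.24 to 0.70 in this comparison, with adjusted p from 0.000166 to 1, so no direction is given for it. The adjusted p of Sesn2 ran from 0.00997 to 0.989 and that of Ccng1 from 0.0239 to 0.765, and the GC offset was the only alternative that called either. The part of GC content in the differences between days was not tested further.

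Over 3 days 2 of the 8 genes fell (Trp53 and Mdm2) and 1 rose (Cdkn1a), against 26.3% and 27.6% of all genes tested. With the GC offset the counts were 4 and 2. Between day 3 and day 2 edgeR called 0 of the 8 in either direction, where 2.81% of all genes tested rose and 1.26% fell. At an unadjusted p under 0.05 there were 1 higher and 3 lower, and DESeq2 called 1 higher and 0 lower. Cdkn1a was the gene nearest the threshold in this comparison (log2 fold change 0.66 ± 0.17, adjusted p = 0.0608), and 4 of 19 alternatives called it higher, with adjusted p from 0.0218 to 0.521.

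In the sorted progenitors no difference of the 8 genes from unsorted day 3 passed the test. Neither edgeR nor DESeq2 called any of them, 0 reached an unadjusted p under 0.05, and 0 of 22 alternatives called one, where 0.435% of all genes tested rose and 2.93% fell. Cdkn1a had 107 ± 24.8 CPM in sorted cells (n = 3), against 128.2 ± 17.8 CPM at day 3 (n = 2), a log2 fold change of -0.26 ± 0.18 (adjusted p = 0.551). Trp53 differed by -0.16 ± 0.18 (adjusted p = 0.739) and Mdm2 by 0.09 ± 0.14 (adjusted p = 0.834). Other SEs ran up to 0.41, that of Bax. An SE is not a limit of detection: the paralog Cdkn1c, at -0.68 ± 0.27 in this comparison, had an edgeR adjusted p of 0.25. Differences well above their SE could thus go uncalled here. Between the same groups the extraembryonic endoderm markers summed to 499.7 to 724 CPM in sorted cells, against 2240 to 4017 CPM at day 3, and their part in the 8 genes' levels was not tested.

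The genes whose courses were most like those of the 3 movers were found among 10417 genes with at least 5 CPM on average, by the root mean square difference of centred log2 CPM over the 11 libraries. For Trp53 they were Pabpc4 (0.157), Ino80e (0.16), Rrp1b (0.17) and Imp4 (0.179), and Pabpc4 had 96.5 and 86.5 CPM (day 0), 34.9 and 44 (day 1), 55.9 and 50 (day 2), 37.8 and 38.8 (day 3) and 33.4, 36.8 and 38 in the sorted cells. For Mdm2 they were Dlgap5 (0.086), Riok3 (0.089), Pigf (0.094) and Coa6 (0.098). For Cdkn1a they were Ankrd6 (0.177), Litaf (0.189), Slc12a7 (0.191) and Btg2 (0.191). Btg2, an antiproliferative gene that is itself a known p53 target, had 79.1 and 60.2 CPM (day 0), 42.3 and 48.8 (day 1), 66.8 and 66.8 (day 2), 106 and 106 (day 3), and 92.4, 105 and 114 in the sorted cells. Its day 3 level was above day 0 by a log2 fold change of 0.61 ± 0.17 (adjusted p = 0.0149).

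Several paralogs of the 8 genes rose where the p53 target itself did not pass the test. Of 12 paralogs tested, 7 rose (58.3%) and 1 fell (8.33%) at day 3 against day 0, where 27.6% of all genes tested rose and 26.3% fell. Among those that rose, Isg20 averaged only 0.0982 CPM at day 0 and 0.447 at day 3, and was called in 5 of 17 alternatives. Trp63, also among them, had 3 counts in each day 0 library. The 4 not called were Mdm4, Bak1, Sesn1 (log2 fold change -0.11 ± 0.20, adjusted p = 0.645) and Bok (-0.47 ± 0.26, adjusted p = 0.144). Sesn3 reached 56 ± 3.19 CPM at day 3, against 19.9 ± 0.168 CPM at day 0 (SD, n = 2 each), a log2 fold change of 1.5 ± 0.16 (adjusted p = 7.41e-05). Sesn2 gave -0.08 ± 0.19 in the same comparison. Trp53inp2, an autophagy gene, reached 103 ± 2.62 CPM at day 3, against 29.9 ± 6.11 CPM at day 0 (1.79 ± 0.18, adjusted p = 6.44e-05), where Trp53inp1 gave -0.09 ± 0.24. Ccng2, encoding cyclin G2, reached 66.4 ± 3.48 CPM, against 15.9 ± 3.35 CPM at day 0 (2.07 ± 0.21, adjusted p = 5.78e-05), where Ccng1 gave 0.23 ± 0.25. These 3 rises were called in 19 of 19 alternatives, and the difference in response between paralogs was not itself tested.

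The other kinase inhibitors of the p21 family, Cdkn1b and Cdkn1c, also rose over 3 days, and went opposite ways on the first. Cdkn1b, encoding p27, had 38.7 and 44.7 CPM (day 0), 83.8 and 75.8 (day 1), 77.8 and 68.8 (day 2), 127.3 and 119 (day 3) and 146, 124.8 and 130.8 in the sorted cells. It rose on the first day (log2 fold change 0.94 ± 0.16, adjusted p = 0.00434), and both day 1 libraries were above both of day 0. Over 3 days it rose by 1.57 ± 0.16 (adjusted p = 6.56e-05, 19 of 19 alternatives). Cdkn1c, encoding p57, had 133 ± 16.8 CPM at day 3, against 52.5 ± 23.6 CPM at day 0 (1.35 ± 0.29, adjusted p = 0.00406), a call lost under the GC offset and with log2(FPKM + 1) without a filter (adjusted p up to 0.114 over 19 alternatives). At day 1 Cdkn1c had 24.6 and 24.2 CPM, against 69.2 and 35.8 CPM at day 0 (-1.11 ± 0.29, adjusted p = 0.0282). This lower level was called in 10 of 19 alternatives, with adjusted p up to 0.451, and was lost without the first library of day 0, either of day 1 or either of day 3.

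The p53 relatives Trp63 and Trp73 reached the counting floor at one end of the course, and counts are given in place of fold changes. Trp73 had 236 and 110 counts (day 0), 55 and 76 (day 1), 4 and 6 (day 2), 0 and 5 (day 3), and 1, 2 and 2 in the sorted cells. Trp63, a marker of epithelial lineages, had 3 and 3 counts (day 0), 8 and 12 (day 1), 62 and 35 (day 2), 155 and 74 (day 3), and 4, 10 and 8 in the sorted cells. At day 3 against day 0 the adjusted p was 0.00017 for Trp73, which was lower, and 0.000231 for Trp63, which was higher. Trp63 was also lower in the sorted cells than at day 3 (adjusted p = 0.00838). That call held in 17 of 20 alternatives, with adjusted p up to 0.149. It was lost without the first library of day 3, with a replicate block and with unfiltered log2(FPKM + 1).

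**Figure D4:**
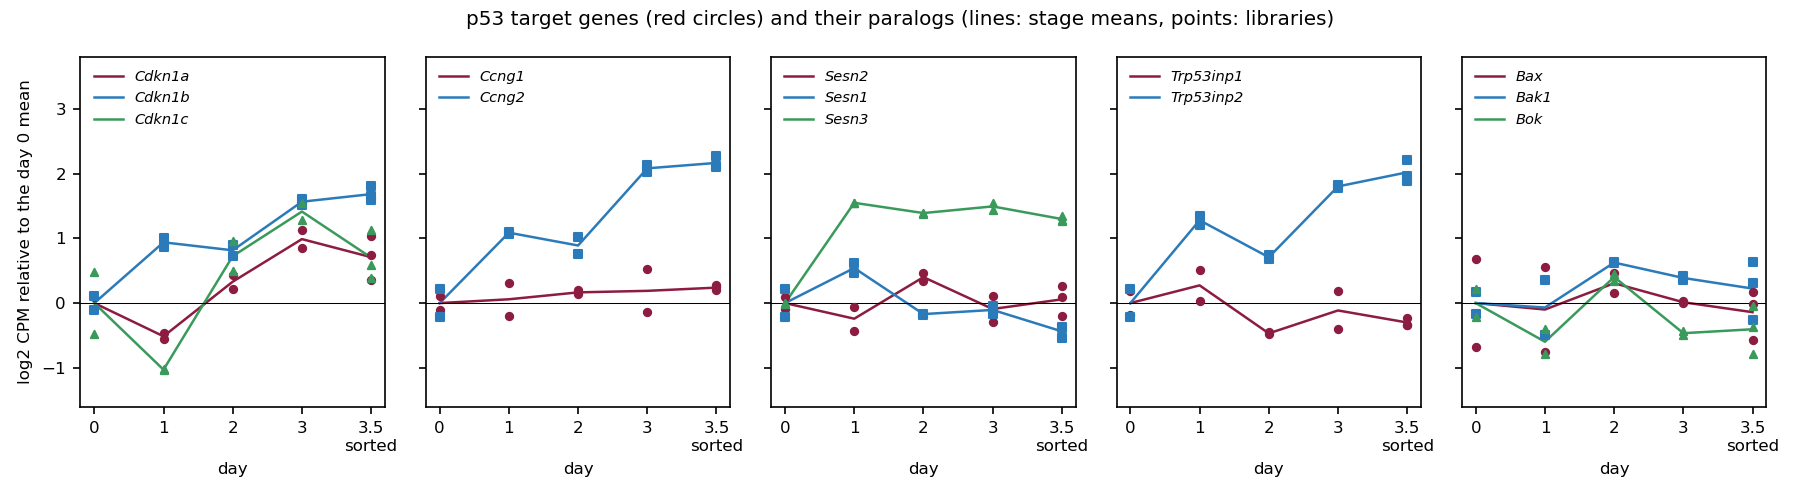
Course of Cdkn1a, Ccng1, Sesn2, Trp53inp1 and Bax (red circles) and their paralogs (blue squares, green triangles) as log2 CPM relative to each gene's own day 0 mean, with a point for each library and a line through the stage means. Ccng2, Trp53inp2 and Sesn3 stand above 0 at day 3 (log2 fold changes 2.07, 1.79 and 1.5), while Ccng1, Trp53inp1 and Sesn2 lie near 0.

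Of the rest of the p53 pathway, 66 genes were listed in 5 groups, and 61 were tested. Over 3 days 15 rose (24.6%), 18 fell (29.5%) and 28 were not called, close to the 27.6% and 26.3% over all genes tested. At day 1 against day 0, 3 rose (4.92%) and 10 fell (16.4%), where 12% of all genes tested rose and 8.91% fell. These counts moved with the processing: they were 6 and 12 by DESeq2, 7 and 16 with the GC offset, and 1 and 2 with unfiltered log2(FPKM + 1), and the first was 6 without the first library of day 1. Between day 2 and day 1, 7 rose (11.5%) and 9 fell (14.8%), where 9.65% of all genes tested rose and 9.99% fell, and these counts hung on single libraries. The 7 became 4 without the first library of day 1 or either library of day 2, 11 without either of day 0 and 12 without the second of day 1. The 9 became 4 without the first library of day 1, 2 and 1 without the first and second of day 2, and 5 without either of day 3. Between day 3 and day 2 edgeR called only Ccng2 (1 higher, or 1.64%, and 0 lower), where 2.81% of all genes tested rose and 1.26% fell. The counts were 11 higher and 4 lower at an unadjusted p under 0.05, and 5 and 1 by DESeq2. The call of Ccng2 was lost without any single library of day 2 or day 3. The count of higher genes was 2 without either library of day 0 and 3 without either of day 1.

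Among 18 family members and controllers of p53, 3 rose (16.7%) and 9 fell (50%) at day 3 against day 0, where 27.6% of all genes tested rose and 26.3% fell. Their median log2 fold change was -0.47, against 0.02 over all genes tested. The count that fell was 5 without the first library of day 3. It ran from 4 to 10 over the alternatives other than single libraries left out. Hipk2, a kinase that phosphorylates p53, reached 179 and 152 CPM at day 3, against 23.8 and 25.3 CPM at day 0, and rose by 2.76 ± 0.16 (adjusted p = 3.52e-06). Pml, the scaffold of the nuclear bodies in which p53 is modified, had 39.3 and 39.8 CPM at day 3, against 149 and 116 CPM at day 0 (-1.74 ± 0.19, adjusted p = 9.75e-05). Chek2, a checkpoint kinase upstream of p53, fell already on the first day, to 46 and 40.7 CPM at day 1, against 79.6 and 102 CPM at day 0 (-1.06 ± 0.19, adjusted p = 0.00545).

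Of 13 apoptosis targets, 5 rose (38.5%) and 3 fell (23.1%) over 3 days, beside 27.6% and 26.3% of all genes tested. The count that rose was 3 without the second library of day 0 or the first of day 3. Pmaip1, encoding the BH3-only protein Noxa, had 108 and 109 CPM (day 0), 38.6 and 29.2 (day 1), 10.6 and 10.6 (day 2), 14.2 and 15.9 (day 3), and 12.4, 12.8 and 16.4 in the sorted cells. It also fell on the first day (log2 fold change -1.68 ± 0.19, adjusted p = 0.000782) and was lower at day 3 than at day 0 (-2.85 ± 0.20, adjusted p = 8.86e-06), with calls in 19 of 19 alternatives. Bid, another BH3-only gene, had 19.1 and 24.3 CPM at day 3, against 64.6 and 66.7 CPM at day 0 (-1.59 ± 0.19, adjusted p = 0.000144). Trp53i11, a p53-inducible gene, had 175 and 179 CPM at day 3, against 30.7 and 15.7 CPM at day 0 (2.94 ± 0.42, adjusted p = 0.000412). Mean levels were also higher at day 3 than at day 0 for Fas (6.38 against 1.22 CPM) and Bbc3 (10.1 against 4.03). So were those of Siva1 (25.3 against 10.7) and Trp53i13 (6.34 against 1.01), while Perp was lower (47.2 against 112.4).

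Of 12 arrest and checkpoint targets, 4 rose (33.3%) and 4 fell (33.3%) over 3 days, near the 27.6% and 26.3% of all genes tested. Besides Ccng2 and Btg2, Trp53cor1, the noncoding RNA next to Cdkn1a also called lincRNA-p21, had 5.5 and 6.18 CPM at day 3, against 1.29 and 0.771 CPM at day 0 (2.49 ± 0.38, adjusted p = 0.000582). Rprm, encoding the arrest protein Reprimo, had 8.43 and 6.47 CPM at day 3, against 1.77 and 1.24 CPM at day 0 (2.30 ± 0.35, adjusted p = 0.000607). Mean levels were lower at day 3 than at day 0 for Pvt1 (3.25 against 12.7 CPM) and Plk2 (85.9 against 151.1). The same held for Gadd45a (13.3 against 32.6) and Sfn (2.41 against 10.9). At day 1 against day 0 edgeR called Pvt1 (-1.98 ± 0.34, adjusted p = 0.00493) and Plk2 (-1.17 ± 0.2, adjusted p = 0.00517) lower, and Ccng2 higher (1.07 ± 0.2, adjusted p = 0.00723). Of 10 metabolic, autophagy and secreted targets, 3 rose and 1, Gls2, the glutaminase induced by p53, fell, to 8.33 and 8.06 CPM at day 3, against 24.7 and 31.8 CPM at day 0 (-1.78 ± 0.22, adjusted p = 0.000176). Of 8 DNA repair targets edgeR called 0 higher, as did DESeq2 (0), with 0 at an unadjusted p under 0.05, and 1, Rad51c, fell. That call of Rad51c held in 9 of 19 alternatives, with adjusted p up to 0.364, and was lost without the second library of day 0, either library of day 2 or the first of day 3.

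The sorted cells differed from day 3 in 2 of the 61 pathway genes, both lower, Trp63 and Dram1. That is 3.28%, near the 2.93% of all genes tested that were lower. The count of lower genes was 11 at an unadjusted p under 0.05, 4 by DESeq2, 6 with no filter on low counts and 1 without the first library of day 3. edgeR called 0 higher, against 3 at an unadjusted p under 0.05 and 1 by DESeq2. Dram1, encoding a lysosomal membrane protein of autophagy, had 0.239, 0.324 and 0.735 CPM in the sorted cells, against 10.9 and 6.66 CPM at day 3 (-4.37 ± 0.43, adjusted p = 3e-04, 22 of 22 alternatives). It fell beside the extraembryonic endoderm markers given above, whose part in this difference was not tested.

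In the BCL2 family, where Bax gave no direction, 5 of 11 genes tested rose (45.5%) and 1 fell (9.09%) at day 3 against day 0, beside 27.6% and 26.3% of all genes tested. Bcl2, the founding inhibitor of apoptosis, had 4.66 and 2.74 CPM (day 0), 4.04 and 3.5 (day 1), 13.7 and 11.1 (day 2), 30.1 and 22.9 (day 3) and 30.7, 32.2 and 24.5 in the sorted cells. It rose over 3 days by 2.84 ± 0.32 (adjusted p = 0.000109). The BH3-only gene Bmf also rose, to a mean of 48.6 CPM at day 3, against 20.6 CPM at day 0 (1.25 ± 0.2, adjusted p = 0.000782, 19 of 19 alternatives). In sorted cells it was lower than at day 3 (-0.86 ± 0.16, adjusted p = 0.0128, 17 of 22 alternatives). Hrk, another BH3-only gene, was higher at day 1 than at day 0 (1.3 ± 0.3, adjusted p = 0.0157, 16 of 19 alternatives). Mcl1, an inhibitor on which stem cells rely, had 719 and 964 CPM (day 0), 1034 and 775 (day 1), 332 and 338 (day 2), 255 and 317 (day 3) and 302, 275 and 230 in the sorted cells. Its libraries of days 0 and 1 overlapped, and it fell at day 2 against day 1 (log2 fold change -1.43 ± 0.21, adjusted p = 0.0024), as Mdm2 did. Bak1, another pore-forming member, had 53.3 and 51.3 CPM at day 3, against 45.1 and 35.4 CPM at day 0 (0.38 ± 0.26, adjusted p = 0.242).

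**Figure D5:**
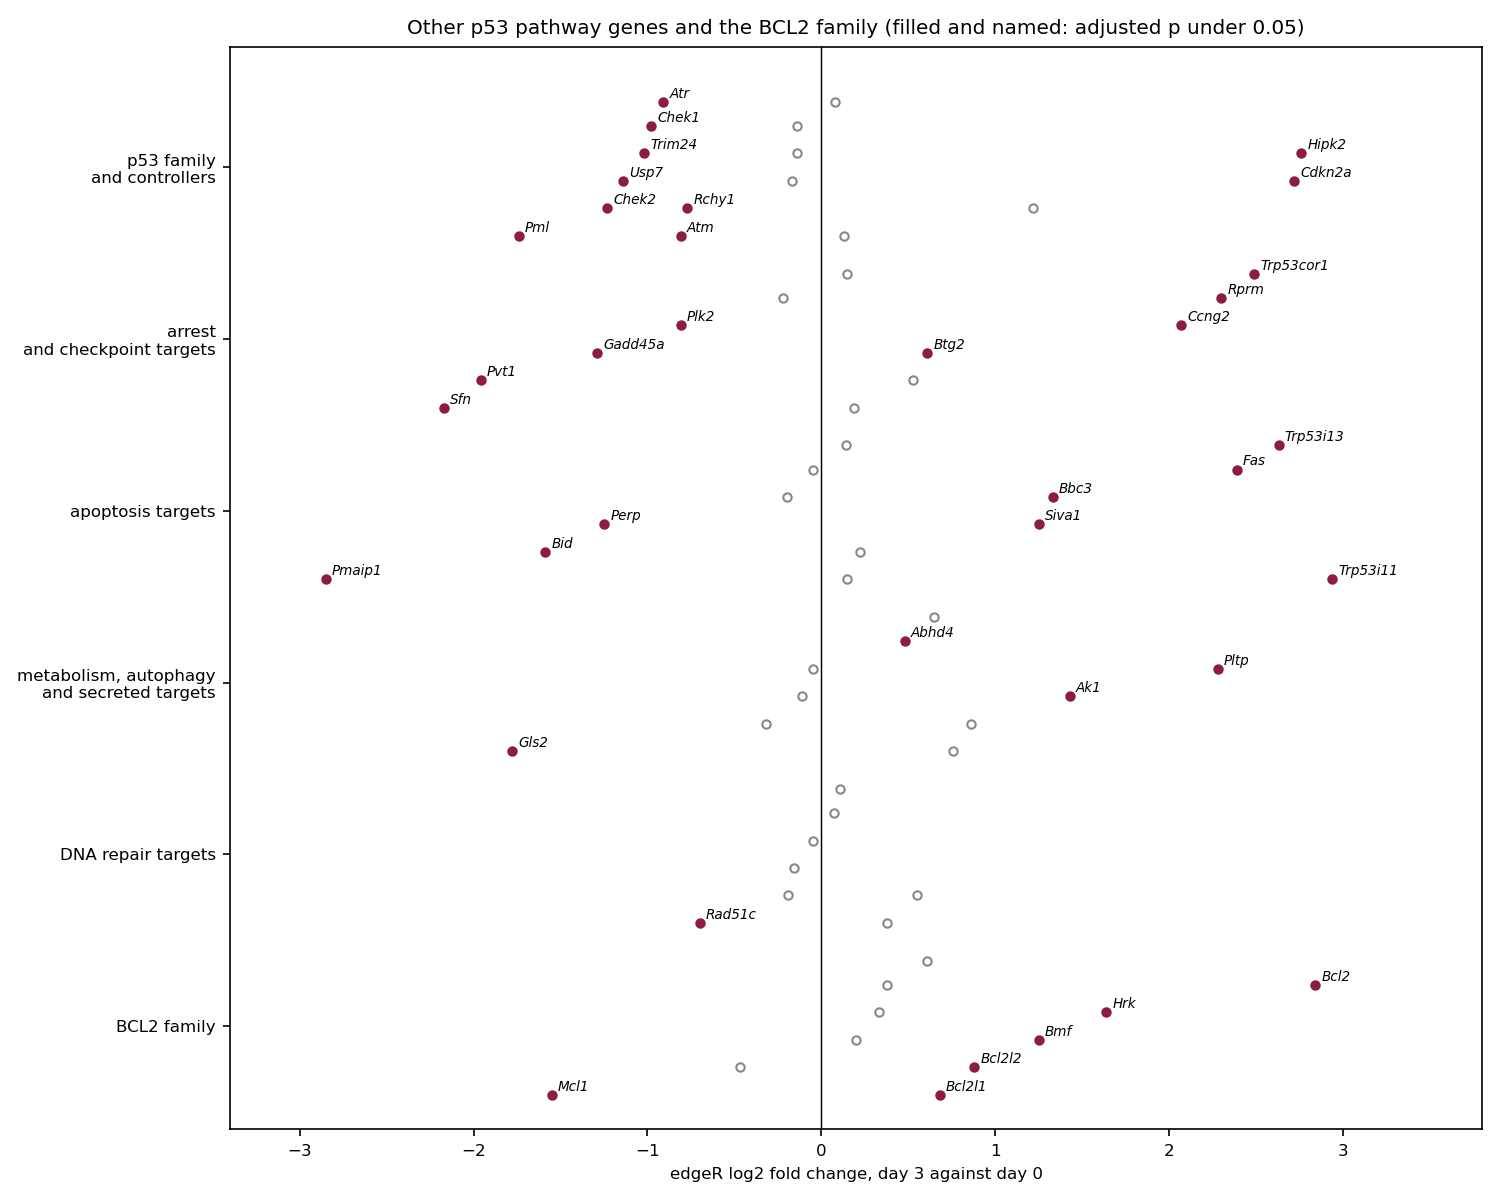
edgeR log2 fold change at day 3 against day 0 of each gene tested in the 5 other p53 pathway lists and the BCL2 family, with one point for each gene, filled and named where the adjusted p was under 0.05. Every list but DNA repair holds called genes on both sides, from Pmaip1 at -2.85 to Trp53i11 at 2.94, and Trp63 and Trp73 are left out because 1 of the days averaged 3 counts or fewer.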

How the data were processed

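Polyadenylated RNA was measured in 11 libraries of E14 cells, prepared with a ZymoPure kit and Illumina TruSeq polyA selection per the labels' protocols. The submitters' processing notes name TopHat2 2.0.4 and HTSeq 0.6.1, Cufflinks 2.1.1, bcl2fastq 1.8.3, limma and CASAVA, without roles, and builds GRCm38 and mm10. Which annotation was used was not given in the sources used here. Gene counts deposited by the authors hold fractions for 104 of 38197 genes and for 0 of the 8 described, so they were handled like estimated counts (expected counts) and rounded. The deposited log2 (voom) values were recomputed from the counts, with a largest difference of 4.97e-14. FPKM values were made by the authors and used for levels per length and for alternatives. All columns were matched to libraries (0 unmatched).

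Counts were tested in edgeR 4.0.16 (R 4.3.3) by its quasi-likelihood F test, with TMM scaling, a filterByExpr minimum count of 10 and Benjamini-Hochberg adjustment over all genes tested at a threshold of 0.05. A model of group means was fitted to the 8 libraries of days 0 to 3 (16810 genes), and day 3.5 sorted against day 3 on all 11 (17006 genes). Each SE of a fold change, on the log2 scale, was its absolute value divided by the root of F. CPM used TMM factors over 11 libraries. Fits were tested on simulated data.

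Alternatives were DESeq2 1.42.0, unfiltered counts, a fit with other libraries added, a replicate block, RLE size factors, limma 3.58.1 on log2(FPKM + 1) and log2(FPKM + 0.1) with a filter of 1 FPKM in at least 2 libraries and on unfiltered log2(FPKM + 1), the deposited voom values, a lowess GC offset (span 0.3, 92.8% of tested genes with a value), each library left out and, chosen after seeing the data, the lower Bax libraries of days 0 and 1 left out together. Genes named were the 8, up to 3 called genes per list and comparison with the smallest adjusted p, their paralogs and the 4 genes most like Trp53, Cdkn1a and Mdm2. The members and lists were chosen with earlier results of these data known. Lists are described by counts without a set test. RefSeq promoters were searched over both strands.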

Additional observations from a re-analysis of the deposited data

How the results depend on the processing

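The calls of Trp53, Mdm2 and Cdkn1a at day 3 against day 0 kept direction and side of the threshold in all 19 alternatives, and the counts of 0 for the sorted cells and for genes higher at day 1 or lower at day 3 than at day 2 did not move. Other counts among the 8 genes moved. At day 1 against day 0 the count of lower genes, 1, was 0 with unfiltered log2(FPKM + 1) and 2 under the GC offset (1 to 1 without single libraries). At day 2 against day 1 the count of higher genes, 2, was 1 with either FPKM pseudocount, the voom values, the GC offset and without both low libraries of Bax, and 0 with unfiltered log2(FPKM + 1) (0 to 3 without single libraries). The count of lower genes there, 1, was 2 with no filter on counts, DESeq2, other libraries in the fit and voom values, 3 with the GC offset, and 0 with unfiltered log2(FPKM + 1) and without the low libraries of Bax (0 to 2 without single libraries). At day 3 against day 2 the count of higher genes, 0, was 1 with no filter, DESeq2, the GC offset and without the low libraries of Bax (0 to 0 without single libraries). At day 3 against day 0 the GC offset gave 2 higher in place of 1 (1 to 1 without single libraries) and 4 lower in place of 2 (2 to 2). Genes with any change, 3, were 6 with no filter and 7 with the GC offset (3 to 6 without single libraries). The GC offset turned Bax to -0.57 and Sesn2 to -0.02 at day 2 against day 1, and the cause was not tested.

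Correlations between days of the deviations of the first libraries ran from -0.63 to 0.28. They cannot tell if replicate numbers pair libraries across days, because libraries of a day also differed with GC content, as given for days 0 and 1. With the replicate block, the day 2 counts against day 1 were 1 higher and 0 lower. With 2 libraries a day the SE of a member's log2 fold change between days was 0.17 to 0.46. On the voom scale the median change over all genes tested, in log2, was 0.15 at day 1 and 0.18 at day 3, each compared with day 0, and 0.01 and 0.02 after TMM scaling.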
